A study of Mus musculus with 12 samples.

Results

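The genes examined were the 5 transcription factors that specify and maintain the thyroid follicular lineage, *Pax8*, *Nkx2-1*, *Foxe1*, *Hhex* and *Glis3*. They were taken by gene symbol from the 55536 genes of the deposited tables, and all 5 had a row and passed the filter on low counts. RNA sequencing of whole thyroids from 12 mice had been performed, with 1 library per mouse, to compare the transcriptome of dysplastic with normal glands. The affected group was 5 mice of the C57BL/6NTac (B6NTac) strain that carried the label of a thyroid dysplasia phenotype. The unaffected group was 7 mice labelled as wild type in phenotype. Of these, 6 were C57BL/6NCrl (B6NCrl) mice from another vendor, and 1 (mouse 14) had no dysplasia and came from a mutant strain on the B6NTac background, a KO according to the methods. The gene altered in that mouse is not given in the sources used here. In this strain, dysplasia was traced to a LINE-1 retrotransposon inserted in an intron of *Tg*, the thyroglobulin gene. The labels give no LINE-1 genotype, sex, age or batch for any of the 12 mice. All affected mice were B6NTac and 6 of the 7 unaffected mice were not, so that the substrain and the phenotype cannot be told apart except through mouse 14.

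Thyroid follicular cells arise from a bud of foregut endoderm in which *Pax8*, *Nkx2-1*, *Foxe1* and *Hhex* are expressed together, and the adult cells keep all of them. PAX8 and NKX2-1 bind regulatory DNA of the genes that make thyroid hormone, among them *Tg*, while FOXE1 acts in bud migration and later at the same genes. HHEX is a homeodomain repressor needed to keep the bud, and GLIS3 is a zinc finger factor that acts downstream of the TSH receptor in hormone synthesis and in goitre formation. Each factor also has other sites of expression, such as kidney for *Pax8*, airway, forebrain and C cells for *Nkx2-1*, liver and endothelium for *Hhex*, and pancreatic islets for *Glis3*.

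*Pax8* fell in affected thyroids. Its mean was 266 ± 99.9 CPM (SD, n = 5; counts scaled to the library size with TMM factors) against 467 ± 44.0 (SD, n = 7) in unaffected thyroids. *Foxe1*, *Nkx2-1* and *Hhex* had lower affected means without passing the test, and *Glis3* had almost the same mean in both groups. Thus 1 of the 5 factors was called, in the downward direction, at an adjusted p under 0.05 in edgeR's quasi-likelihood test over all genes. Of the 19661 genes tested, 13.7% were called, 6.1% lower and 7.63% higher, so that with 5 genes the count itself says little. The median log2 fold change of the 5 factors was -0.41, and that of all genes tested was 0.0052. In whole glands, fewer follicular cells and less RNA of a gene per follicular cell cannot be told apart.

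The 5 factors were well covered in each library. Their counts in single mice ran from 505 for *Glis3* in mouse 14 to 10669 for *Pax8*, out of total counts of 11434901 to 23319948 per mouse. At the lowest of these counts the counting error is 4.45%, well under the spread between mice. *Tg*, the defining gene of the tissue, took 10.7% to 24.3% of all counts in affected mice and 21.6% to 29.6% in unaffected mice. Genes of neighbouring tissues varied between dissections. The summed CPM of 8 skeletal muscle genes was 28115 in affected mouse 6, and that of 10 airway genes was 2311 in affected mouse 3. In unaffected mouse 23 a single airway gene, the mucin *Muc5b*, had 35086 CPM, while the other 9 airway genes summed to 25.9 CPM. Among markers of other cells, 4 of 8 macrophage genes and 3 of 8 fibroblast genes were higher in affected mice in edgeR. Of all genes tested, 7.63% were higher. The summed CPM of the macrophage genes was 197 to 291 in affected and 92.0 to 207 in unaffected mice, and that of the fibroblast genes 873 to 1327 and 673 to 932. The high fibroblast sums were those of affected mice 1 and 6 (1327 and 1286), the lowest affected mice for all 5 factors. Affected mice 3, 4 and 5 had 883, 950 and 873, near or inside the unaffected range. The part of macrophages and fibroblasts in the levels of the factors was not tested.

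The order of the factors by level was almost the same in every gland. By FPKM, which scales for transcript length and so allows genes to be compared, *Pax8* was highest, followed by *Nkx2-1*, *Foxe1*, *Hhex* and *Glis3* in 11 of 12 mice. In affected mouse 1, *Hhex* at 20.6 FPKM stood just above *Foxe1* at 19.6 FPKM. In unaffected mice the lowest, median and highest FPKM were 159, 175 and 214 for *Pax8*, and 57.7, 69.3 and 82.9 for *Nkx2-1*. They were 38.1, 46.2 and 56.4 for *Foxe1*, 25.0, 31.5 and 43.4 for *Hhex*, and 8.08, 9.49 and 11.7 for *Glis3*. Among neighbours in this order, only the ranges of *Foxe1* and *Hhex* overlapped in the unaffected mice. In affected mice the ranges were wider, namely 63.6 to 152 FPKM for *Pax8*, 29.6 to 71.8 for *Nkx2-1*, 19.6 to 45.9 for *Foxe1*, 15.0 to 37.8 for *Hhex* and 6.11 to 12.5 for *Glis3*. There, every pair of neighbours overlapped except *Hhex* and *Glis3*.

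**Figure D1:**
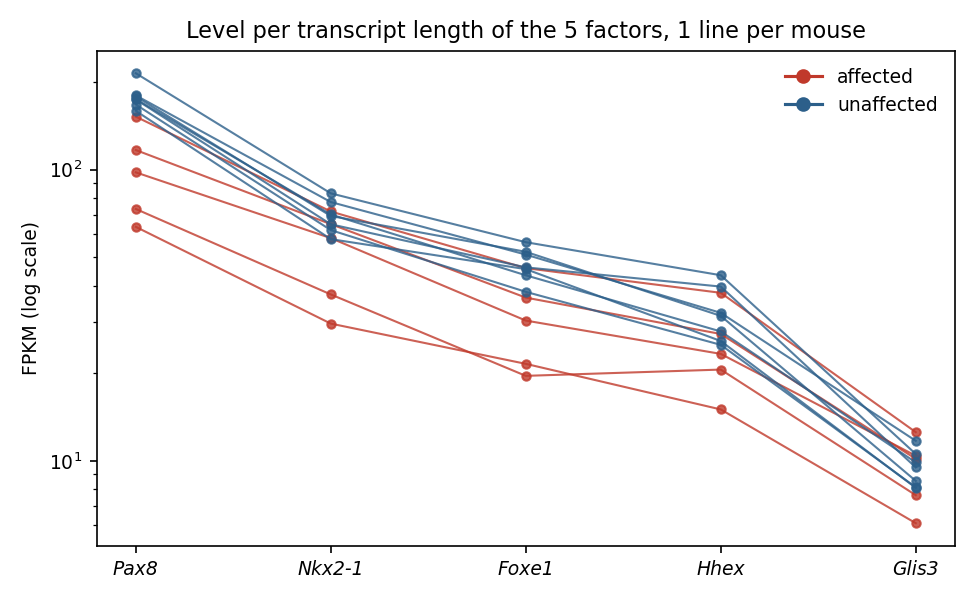
FPKM of each factor (log axis) with 1 line per mouse, affected mice in red and unaffected mice in blue. The lines fall from *Pax8* to *Glis3* in 11 of 12 mice, and 2 red lines (mice 1 and 6) are the lowest of all mice at each factor.

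The promoter windows given for the factors differ in CpG dinucleotides and GC content. They are shown because the factors are a set that is expressed together. RefSeq promoter sequence (GRCm38.p6) was given for 4 of the 5 factors, not for *Foxe1*. The 250 bases just upstream of each RefSeq start are printed 5′ to 3′ on the strand of the gene, with CpG dinucleotides in capitals. The windows are chr2:24475600-24475849, minus strand, for *Pax8*, chr12:56536909-56537158, minus strand, for *Nkx2-1*, chr19:37434591-37434840, plus strand, for *Hhex*, and chr19:28680078-28680327, minus strand, for *Glis3*.
Pax8: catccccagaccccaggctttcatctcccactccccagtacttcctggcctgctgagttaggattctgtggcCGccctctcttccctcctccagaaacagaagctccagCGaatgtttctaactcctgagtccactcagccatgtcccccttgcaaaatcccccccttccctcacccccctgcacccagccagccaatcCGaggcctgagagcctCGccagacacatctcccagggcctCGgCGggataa
Nkx2-1: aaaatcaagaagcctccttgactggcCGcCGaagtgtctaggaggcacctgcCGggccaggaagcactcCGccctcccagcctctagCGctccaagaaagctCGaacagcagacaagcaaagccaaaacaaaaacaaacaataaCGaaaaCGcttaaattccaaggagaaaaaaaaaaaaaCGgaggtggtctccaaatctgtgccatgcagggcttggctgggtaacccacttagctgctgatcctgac
Hhex: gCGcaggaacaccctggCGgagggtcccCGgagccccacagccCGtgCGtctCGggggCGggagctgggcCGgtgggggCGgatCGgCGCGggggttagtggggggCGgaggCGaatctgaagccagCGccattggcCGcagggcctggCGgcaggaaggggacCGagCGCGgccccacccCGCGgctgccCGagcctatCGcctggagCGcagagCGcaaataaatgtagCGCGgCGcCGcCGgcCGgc
Glis3: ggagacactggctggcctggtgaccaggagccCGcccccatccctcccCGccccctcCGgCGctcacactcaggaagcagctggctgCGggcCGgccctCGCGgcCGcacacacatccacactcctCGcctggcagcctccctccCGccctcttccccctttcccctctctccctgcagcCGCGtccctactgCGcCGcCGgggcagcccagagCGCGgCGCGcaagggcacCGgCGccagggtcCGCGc

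The *Pax8* window held 6 CpG and the *Nkx2-1* window 9, near the median of 6 over 32851 mouse promoters of the same length. The *Hhex* window held 32 and the *Glis3* window 24. GC content was 60.4% for *Pax8* and 50.8% for *Nkx2-1* against 76.0% for *Hhex* and 75.6% for *Glis3*, with a median of 52.4% over all promoters. The *Nkx2-1* window lies upstream of the longer annotated transcript of that gene. The shorter transcript starts within the gene, and the bases upstream of that start are not shown. The *Nkx2-1* transcript lengths given below lay nearer to the shorter transcript. The windows were searched on both strands for TNAAGTG (an NK2 homeodomain core), GTCACGC (a paired domain core), TGTTTAC (a forkhead core), TGGGGGG (a GLIS zinc finger core) and TATAAA, the core promoter box named for it. These letters occur in 10.1%, 1.78%, 3.17%, 7.67% and 12.4% of all promoters, respectively. The only match among the 4 factors was TGGGGGG in *Hhex*, 151 to 145 bases upstream of the start. A match or its absence in so short a window says nothing about binding.

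*Pax8* (ENSMUSG00000026976, GRCm38 chr2:24420560-24475599, minus strand) encodes the paired domain factor of the thyroid. Its level was 175, 246, 417, 308 and 185 CPM in affected mice 1, 3, 4, 5 and 6. In unaffected mice the lowest, median and highest were 417, 473 and 549 CPM. Of the affected mice, 4 were below all unaffected mice, and mouse 4 (417.2 CPM) lay just above the lowest unaffected mouse, mouse 21 (416.7 CPM). The log2 fold change was -0.81 (SE 0.19, adjusted p = 0.0158, edgeR), with the mean level in affected mice at 0.570 of that in unaffected mice. It was lower with an adjusted p under 0.05 in each of the 23 other settings tried, with log2 fold changes from -1.01 to -0.53. The unaffected B6NTac mouse had 444 CPM, inside the range of the B6NCrl mice. A non-coding gene on the opposite strand, *Gm13415*, shares 367 of the 6061 exonic bases of *Pax8* and had a log2 fold change of -0.90 (SE 0.22, adjusted p = 0.0203, edgeR). The sources do not say if strand entered the counting, so reads in the shared bases cannot be assigned to either gene with certainty.

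*Nkx2-1* (ENSMUSG00000001496, GRCm38 chr12:56531958-56536908, minus strand) encodes the homeodomain factor also known as TTF-1. It had 78.2, 129, 174, 151 and 75.9 CPM in affected mice 1, 3, 4, 5 and 6, and 138, 153 and 190 CPM as the lowest, median and highest of the unaffected mice. Affected mice 1, 3 and 6 were below all unaffected mice, while mice 4 and 5 were within their range. The log2 fold change was -0.41 (SE 0.20, adjusted p = 0.199, edgeR), and no setting called it. Airway cells and C cells can also express *Nkx2-1*. The airway genes other than *Muc5b* summed to 2137 CPM in affected mouse 3, whose *Nkx2-1* level was the median of its group, to 29.1 to 183 in the other affected mice and to 11.5 to 37.2 in unaffected mice. The C cell list was mostly *Chga*, a granin gene that parathyroid cells also express, which had 16.9 CPM in affected mouse 4 and 1814 or more in all other mice. Without *Chga* the C cell genes summed to 532, 888, 1475, 581 and 645 CPM in affected mice 1, 3, 4, 5 and 6, and to 782 to 1411 in unaffected mice. Mouse 4 was also the highest affected mouse for *Nkx2-1*. Mouse 5, next after it for *Nkx2-1*, had a lower sum than mouse 6, the lowest for *Nkx2-1*. The part of C cells in the *Nkx2-1* level was not tested.

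*Foxe1* (ENSMUSG00000070990, GRCm38 chr4:46343609-46346412, plus strand) is a gene of a single exon that encodes the forkhead factor of the lineage, and had the lowest log2 fold change after *Pax8*. Its level was 49.9, 81.8, 135, 103 and 67.1 CPM in affected mice 1, 3, 4, 5 and 6, against 101, 132 and 155 CPM as the lowest, median and highest of the unaffected mice. Affected mice 1, 3 and 6 were again below all unaffected mice, and mouse 5 lay just above the lowest unaffected mouse. The log2 fold change was -0.61 (SE 0.21), and its adjusted p of 0.0696 in edgeR missed the threshold. The call depended on the test, on the filter and on 1 mouse. *Foxe1* was called in DESeq2 (-0.60, adjusted p = 0.029), in limma on log2(FPKM + 1) with a filter on low FPKM (-0.67, adjusted p = 0.0357, but 0.0735 without the filter) and in edgeR without affected mouse 4 (-0.80, adjusted p = 0.0105). The antisense gene *Gm12446* covers 102 of its 2804 exonic bases and had at most 231 counts in a mouse.

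*Hhex* (ENSMUSG00000024986, GRCm38 chr19:37434810-37440731, plus strand) encodes the homeodomain repressor of the lineage. Affected mice 1, 3, 4, 5 and 6 had 38.6, 47.2, 81.9, 55.9 and 34.9 CPM, and the lowest, median and highest unaffected mice had 52.5, 63.6 and 91.5 CPM. Mice 1, 3 and 6 were below all unaffected mice. The log2 fold change was -0.41 (SE 0.22, adjusted p = 0.228, edgeR). It was called only without affected mouse 4 (-0.62, adjusted p = 0.0348). *Hhex* is also expressed in endothelium, and the summed CPM of 10 endothelial genes was 630 to 803 in affected and 661 to 891 in unaffected mice, with 1 of the 10, *Kdr*, lower in affected mice (-0.60, SE 0.18, adjusted p = 0.0413, edgeR). The part of these cells in the *Hhex* level was not tested.

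*Glis3* (ENSMUSG00000052942, GRCm38 chr19:28258851-28680077, minus strand), the zinc finger factor, had nearly equal means in both groups. It had 36.2, 54.6, 68.7, 52.5 and 37.7 CPM in affected mice 1, 3, 4, 5 and 6, and 40.5, 51.5 and 61.4 CPM as the lowest, median and highest of the unaffected mice. Mice 1 and 6 were below all unaffected mice, mice 3 and 5 were within their range and mouse 4 was above it. The log2 fold change was 0.02 (SE 0.16, adjusted p = 0.949, edgeR), and its sign changed in 10 of 23 other settings, so no direction can be given. These other settings put it between -0.10 and 0.25.

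**Figure D2:**
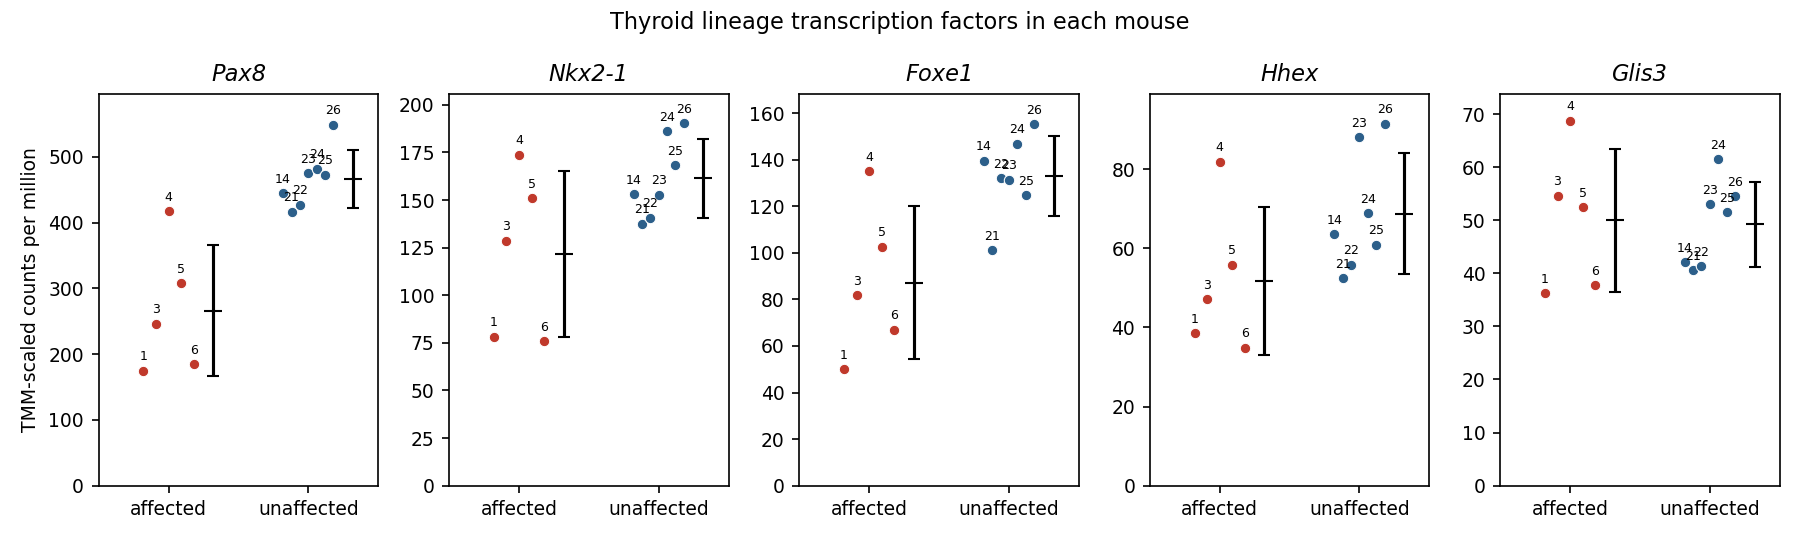
TMM-scaled CPM of each factor (linear axis from 0) in 5 affected (red) and 7 unaffected (blue) mice, with the mouse number over each point and the mean ± SD beside each group. Affected mouse 4 is highest and mice 1 and 6 are lowest of the affected group in every panel, and *Pax8* has 4 of 5 affected mice below all unaffected mice.

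The same affected mice stood at the ends for all 5 factors. Mouse 4 was the highest affected mouse for 5 of 5 factors, and mice 1 and 6 were the lowest pair for 5 of 5. The highest affected mouse had 2.38 times the lowest for *Pax8*, 2.29 times for *Nkx2-1*, 2.70 times for *Foxe1*, 2.35 times for *Hhex* and 1.90 times for *Glis3*. In unaffected mice these ratios were 1.32, 1.38, 1.53, 1.74 and 1.52, with mouse 21 lowest for all 5 factors and mouse 26 highest for all but *Glis3*. The share of *Tg* in all counts followed the same order at its ends, with 24.3% in affected mouse 4 and the lowest shares in mice 1 and 6. Affected mouse 1 also had the highest summed CPM of fat genes (3305), affected mouse 6 that of muscle genes (28115), and affected mouse 4 the lowest of parathyroid genes (50.7, against 1893 or more in all other mice). The summed CPM of 9 T cell genes was 337 in unaffected mouse 14 and 330 in mouse 21. It was 4.47 to 5.49 in the other unaffected mice and 3.08 to 57.2 in affected mice. The part of tissue composition in the spread of the factors was not tested. Without mice 1 and 6, a setting chosen after the values were seen, *Pax8* was still lower (-0.53, adjusted p = 0.0323, edgeR). The others were then at -0.32 for *Foxe1*, -0.16 for *Hhex*, -0.09 for *Nkx2-1* and 0.25 for *Glis3*, none of them called.

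Ratios of factors within a mouse, which do not depend on library scaling or on how much of a dissection is thyroid where the factors come from the same cells, were computed for all 10 pairs after the levels had been seen. In 4 of 10 pairs the groups did not overlap. The ratio of *Pax8* to *Glis3* counts was 4.83, 4.51, 6.07, 5.86 and 4.90 in affected mice 1, 3, 4, 5 and 6, and its lowest, median and highest unaffected values were 7.84, 10.1 and 10.6. Every affected mouse thus had less *Pax8* for its *Glis3* than any unaffected mouse, by 0.88 on the log2 scale in the mean. The ratio of *Pax8* to *Nkx2-1* was 1.91 to 2.43 in affected and 2.59 to 3.11 in unaffected mice, a difference of -0.40 on the log2 scale. *Foxe1* to *Glis3* was 1.38 to 1.96 against 2.39 to 3.32 (difference -0.68), and *Nkx2-1* to *Glis3* was 2.01 to 2.88 against 2.89 to 3.64 (difference -0.48), with the 2 groups close to touching in the last.

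A ratio of this kind can separate the groups for many genes. Of 19660 genes set against *Pax8*, 26.3% had a ratio without overlap between the groups, and the shares were 3.72% against *Glis3*, 7.47% against *Nkx2-1*, 9.65% against *Foxe1* and 3.91% against *Hhex*. Among the other factors, 2 of 4 were separated from *Pax8* and 3 of 4 from *Glis3*, while none was separated from *Hhex*. The ratios of *Nkx2-1* to *Hhex* (2.03 to 2.72 against 1.74 to 2.76), of *Nkx2-1* to *Foxe1* (1.13 to 1.57 against 1.07 to 1.36) and of *Foxe1* to *Hhex* (1.29 to 1.92 against 1.49 to 2.36) overlapped. The differences of the 4 separated pairs kept their sign and stayed within 1 SD of their values in FPKM, against B6NCrl mice alone and without any 1 mouse. With FPKM in place of counts, *Pax8* to *Hhex* was also separated.

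**Figure D3:**
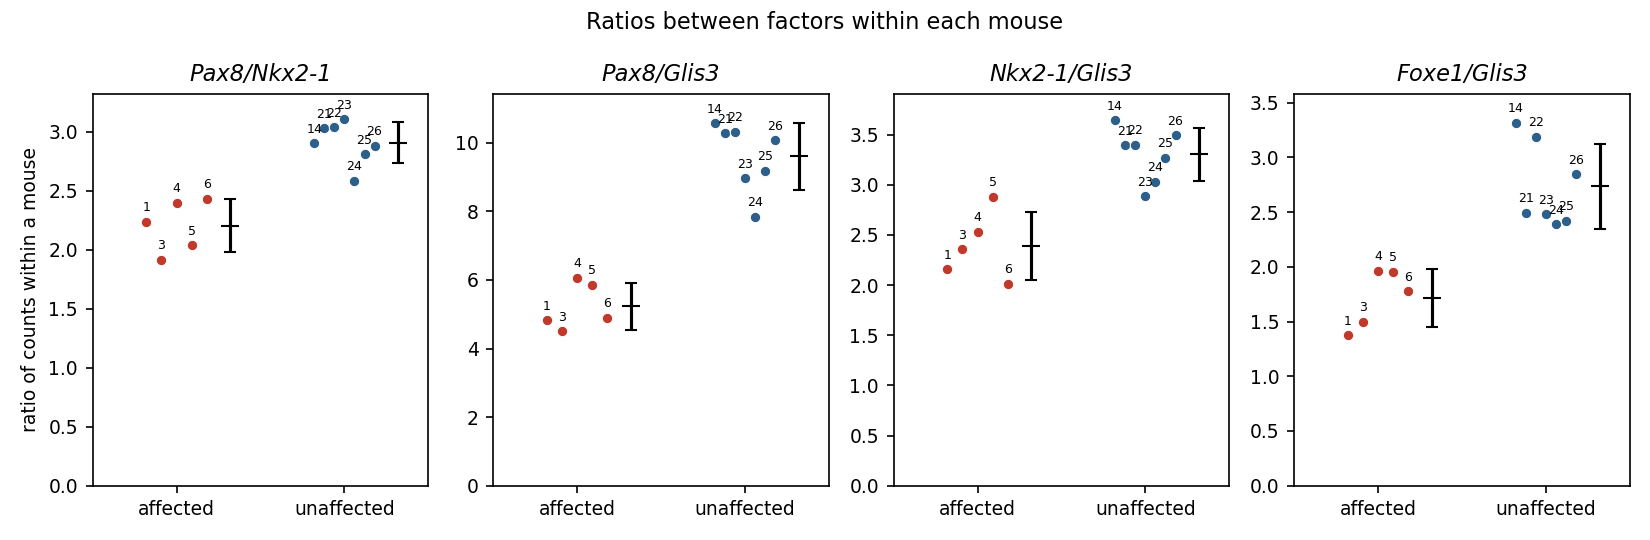
Ratio of counts within each mouse for the 4 pairs of factors whose groups did not overlap (linear axes from 0, red affected, blue unaffected, mouse numbers over points, mean ± SD beside each group). The gap is widest for *Pax8* to *Glis3*, with affected mice at 4.51 to 6.07 and unaffected mice at 7.84 to 10.6.

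Transcript use was examined through the transcript length that the tables imply, which is each gene's count over the product of its FPKM and the library total. For *Foxe1*, which has 1 transcript, this gave 2804 bp in all mice, equal to its annotated length. *Nkx2-1* has 2 annotated transcripts, one of 2809 bp that starts upstream with 600 bases of its own (chr12:56536309-56536908) and one of 2242 bp that starts within the gene with 33 bases of its own. Its implied length was 2310, 2297, 2309, 2311 and 2310 bp in affected mice 1, 3, 4, 5 and 6, and 2319, 2340 and 2357 bp as the lowest, median and highest of the unaffected mice. The 2 groups did not overlap, and all values lay nearer to the shorter transcript, those of affected mice the closest. The difference was -30.2 bp (2307 ± 5.49, SD, n = 5, against 2337 ± 13.9, SD, n = 7), or -1.29%. An exact two-sided permutation test gave p = 0.00253, with 0.00126 the smallest p this design allows, and p = 0.159 after adjustment over the 9084 genes with several transcripts, so that it did not pass. No gene passed after that adjustment, with 12.7% of genes at an unadjusted p under 0.05 and 1.67% without overlap between the groups. With p no lower than 0.00126, a gene could pass over 9084 genes only together with many others of similarly small p. Not passing thus says little about any single gene. The unaffected B6NTac mouse (2319.5 bp) and unaffected mouse 23 (2319.3 bp) were the unaffected mice nearest to the affected ones. The lowest value of all was in affected mouse 3, the mouse with high airway genes, and the difference was -26.9 to -33.2 bp when each mouse was left out. Against B6NCrl mice alone the difference was -33.2 bp (exact permutation p = 0.00433).

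*Hhex* also had a shorter implied length in affected mice, with a difference of -67.2 bp or -3.14%, at 2074 ± 27.4 bp (SD, n = 5) against 2141 ± 46.1 bp (SD, n = 7). The ranges overlapped, from 2036 to 2107 bp and from 2087 to 2212 bp, and the exact permutation p of 0.0164 became 0.272 after adjustment over all 9084 genes. Its annotated transcripts are of 1802 and 1435 bp, with a retained intron form of 3908 bp. *Pax8* at 2619 bp against 2625 bp (exact permutation p = 0.746) and *Glis3* at 5321 bp against 5194 bp (exact permutation p = 0.236) had 8 and 10 transcripts and gave no difference larger than the spread between mice.

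**Figure D4:**
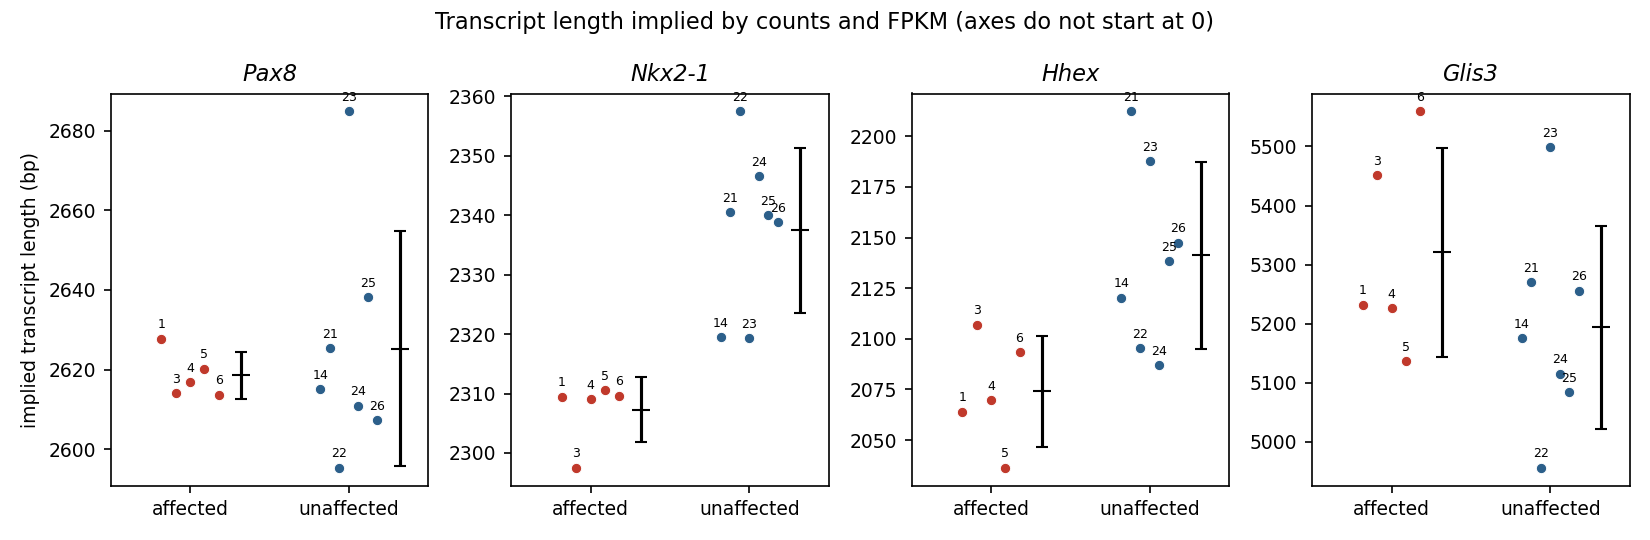
Implied transcript length in bp (axes do not start at 0) of the 4 factors with several transcripts, in affected (red) and unaffected (blue) mice with mouse numbers over points and mean ± SD beside each group. For *Nkx2-1* the affected mice are at 2297 to 2311 bp and the unaffected mice at 2319 to 2357 bp, while the groups overlap in the other panels.

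Genes that the factors are known to regulate in the thyroid did not move as a block. Of 14 such target genes, 3 fell and 1 rose in edgeR, and the median log2 fold change of the 14 was -0.09. *Cdh16*, a cadherin gene activated by PAX8, fell most. It had 19.3, 63.8, 62.5, 55.6 and 28.6 CPM in affected mice 1, 3, 4, 5 and 6 and 135, 159 and 225 CPM as the lowest, median and highest of the unaffected mice, with a log2 fold change of -1.87 (SE 0.29, adjusted p = 0.00176, edgeR). *Bcl2*, a survival gene, fell by 0.75 on the log2 scale (SE 0.16, adjusted p = 0.00894, edgeR). *Slc26a4*, which encodes the iodide and chloride exchanger pendrin, rose from 0 to 6 counts per unaffected mouse to 11 to 77 counts per affected mouse (log2 fold change 3.69, SE 0.64, adjusted p = 0.00301, edgeR). These counts are low, at 14, 77, 28, 51 and 11 in affected mice 1, 3, 4, 5 and 6. The highest was in mouse 3, the mouse with high airway genes, and the part of airway tissue was not tested. The 4 genes called were 28.6% of the list, against 13.7% called among all genes tested. They were also the 4 whose groups did not overlap, and 7.14% of all genes tested had no overlap. The list was chosen with earlier results of these data known.

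Among the genes tied to hormone synthesis, *Tg*, *Slc5a5* and *Tshr* were not called. *Tg* had a log2 fold change of -0.49 (SE 0.21, adjusted p = 0.14, edgeR). *Slc5a5*, the iodide symporter gene, was at 0.14 (SE 0.40, adjusted p = 0.851, edgeR). *Tshr*, the TSH receptor gene, was at 0.31 (SE 0.20, adjusted p = 0.324, edgeR). Affected mice 1 and 6 were the lowest affected mice for *Tg*, *Slc5a5* and *Tshr* as they were for the 5 factors. Without those mice, a setting chosen after the values were seen, 7 of the 14 target genes were called. Of all genes, 2896 of the 20221 tested were called in that setting.

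Partners of the factors changed little. Of 14 cofactor genes, 1 rose and none fell, so that 7.14% were called against 13.7% of all genes tested. The log2 fold changes ran from -0.09 to 0.32 with a median of 0.01. The gene that rose was *Wwtr1*, which encodes TAZ, a coactivator of PAX8 and NKX2-1, with 98.7 ± 7.41 CPM (SD, n = 5) against 79.1 ± 4.19 CPM (SD, n = 7). Its log2 fold change was 0.32 (SE 0.06, adjusted p = 0.00498, edgeR), and the groups did not overlap. It was not called with library totals that leave out *Tg*, a scaling that moved the median of all genes to -0.13. *Wwtr1* had 102, 99.2, 95.9, 109 and 88.4 CPM in affected mice 1, 3, 4, 5 and 6, an order unlike that of the factors. The part of tissue composition in its rise was not tested. *Yap1*, the paralog of *Wwtr1*, was at 0.06 (SE 0.07, adjusted p = 0.604, edgeR).

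**Figure D5:**
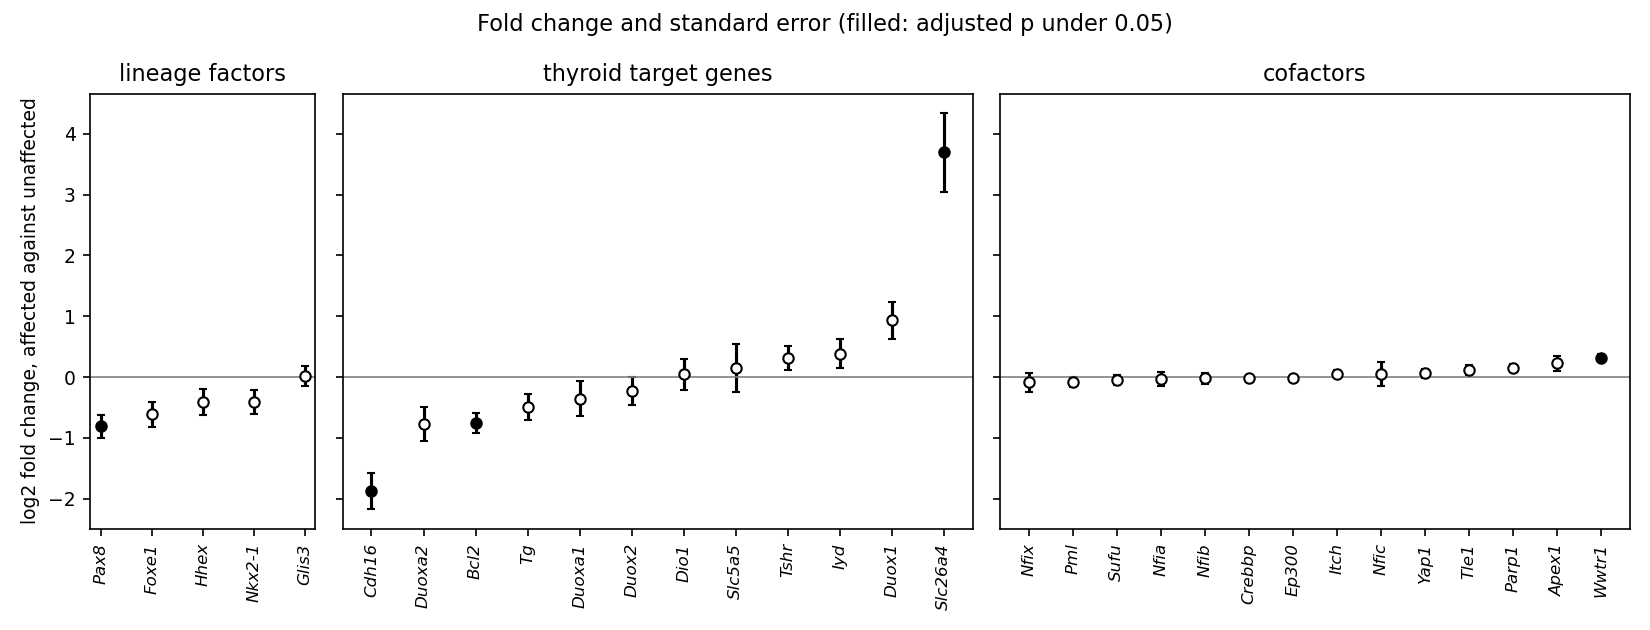
Log2 fold change of affected against unaffected mice with its standard error for the 5 lineage factors, 12 of the 14 target genes and 14 cofactor genes, filled where the adjusted p was under 0.05 in edgeR. The factors run from -0.81 to 0.02, the targets from -1.87 to 3.69, and the cofactors stay between -0.09 and 0.32.

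Paralogs of the factors were low in these glands. Of 17 genes of the same families, 4 passed the filter on counts. These were *Nkx2-2* with a mean of 9.19 FPKM in unaffected mice, *Pax9* with 8.40, *Glis2* with 7.50 and *Pax1* with 4.55, levels like that of *Glis3* or lower and well under those of the other 4 factors. *Glis2*, a zinc finger gene related to *Glis3*, fell by 0.56 on the log2 scale (SE 0.10, adjusted p = 0.00247, edgeR), and its groups did not overlap. *Nkx2-2*, *Pax9* and *Pax1* were not called, with log2 fold changes of -0.17, -0.0078 and -0.72. The other 13 had means of at most 0.231 FPKM in unaffected mice. In affected mice *Pax5*, also on the B cell list, had a mean of 1.13 FPKM and at most 5.20. It had 21.7 CPM in affected mouse 1 and at most 0.440 in the other affected mice.

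The genes whose log2 CPM followed a factor most closely over the 12 mice are given as a description, over 15522 genes, with Pearson's r. They included *Ncaph2* (0.988) and *Large2* (0.986) for *Pax8*, and were *Fmn1* (0.978), *Dlg3* (0.976) and *Tfcp2l1* (0.974) for *Nkx2-1*. For *Foxe1* they were *Appl2* (0.982), *Chdh* (0.980) and *Elmo3* (0.976), for *Hhex* *Magi1* (0.954), *Gm21992* (0.954) and *Tmem204* (0.949), and for *Glis3* *Sash1* (0.961), *Cd82* (0.957) and *March8* (0.954). No factor was among the closest 3 genes of another. The values stayed at 0.929 to 0.973 after the group means were taken out, so that they describe the order of mice within groups as well as the difference between them. The mice share the tissue composition described above, and its part in these values was not tested.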

How the data were processed

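Thyroid RNA of 12 mice was analysed from the deposited gene tables. Per the labels, libraries were made from total RNA with ribosomal RNA removed. The authors aligned reads with OmicSoft's OSA4 to a reference named Mouse.B39 (Ensembl.R96) and quantified genes in Array Studio. The tables place all 5 factors at their GENCODE M21 coordinates, which are of GRCm38. The authors deposited estimated counts per gene, which are not normalized, and FPKM values. Strand use in counting is not stated. Estimated counts were rounded to whole numbers, filtered with filterByExpr (minimum count 10), normalized with TMM and compared by edgeR 4.0.16 (quasi-likelihood, robust, R 4.3.3), affected against unaffected, without covariates, which the labels do not give. P-values were adjusted over all 19661 genes tested (Benjamini-Hochberg, threshold 0.05). No expression test is named in the methods.

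Alternatives were DESeq2 1.42.0, other scalings (library totals, totals without *Tg*, upper quartile), other count filters, B6NCrl controls only, limma 3.58.1 on log2(FPKM + 1) or log2(FPKM + 0.1) with or without a mean FPKM of at least 0.5, and leaving out each mouse. Leaving out affected mice 1 and 6 together, the within-mouse ratios and marker sums without a list's most abundant gene were added after the data were seen. The pseudocount shrinks fold changes from FPKM where a gene is low, and these are given as differences of log2(FPKM + pseudocount). Implied lengths were compared by exact two-sided permutation of 5 against 7 mice for multi-transcript genes with no mouse under 100 counts. The edgeR fit was tested on simulated data. Transcripts came from GENCODE M21, promoters from RefSeq. The members and all gene lists were chosen with earlier results of these data known. Named genes were the 5 factors, *Tg*, *Slc5a5* and *Tshr*, at most 4 called genes per list with the largest change, the 4 paralogs with the highest FPKM, and the 3 genes most like each factor among those with an average log2 CPM of at least 1. *Yap1*, *Krt7*, *Chga*, *Muc5b*, *Pax5* and genes that overlap a factor were named after their values were seen. A few genes of this rule and of the lists are not reported here. Depth limits precision only, since intervals of counting error leave out the spread between mice.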

Additional observations from a re-analysis of the deposited data

Results flagged for a closer look

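Values that stood apart from the rest of their group were looked for in 60 groups of 5 or 7 mice by the gap between an extreme mouse and its neighbour relative to the range, and 6 were found. For normally distributed values chance gives about 1 in 20 groups, and these sums are skewed and come from the same mice. Only 1 concerned a factor, the implied transcript length of *Nkx2-1* in affected mouse 3 (2297.5 bp), below the next affected mouse at 2309 bp. The other 5 were sums of marker genes of neighbouring tissues. The summed CPM of C cell genes was 2597 in unaffected mouse 21, the lowest of its group, of which 1814 was *Chga*. This mouse also had the lowest unaffected sum of parathyroid genes (1893), and without *Chga* its C cell genes summed to 782. That of airway genes was 2311 in affected mouse 3, against 201 in the next affected mouse, with *Bpifa1* (1361 CPM), *Cyp2f2* (336 CPM) and others high. In unaffected mouse 23 it was 35111, of which 35086 was *Muc5b*. Muscle genes summed to 28115 CPM in affected mouse 6, the next affected mouse having 1241, and B cell genes to 125 in affected mouse 1, the next having 3.71 and unaffected mice 6.43 or more. None of the CPM values of the 5 factors stood apart from its group in this way.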

How the results depend on the processing

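*Pax8* was lower with an adjusted p under 0.05 in all 23 settings (adjusted p from 0.00062 to 0.0428), and *Nkx2-1* was never called (-0.56 to -0.09). *Foxe1* was also called in limma with log2(FPKM + 0.1) (-0.69), besides the settings given above, namely DESeq2 (-0.60), limma with log2(FPKM + 1) and a filter (-0.67) and leaving out affected mouse 4. Leaving out each mouse in turn gave -1.01 to -0.69 for *Pax8*, -0.80 to -0.46 for *Foxe1*, -0.62 to -0.29 for *Hhex* and -0.10 to 0.12 for *Glis3*. The sign of *Glis3* turned with library totals without *Tg* (-0.10), upper-quartile factors (-0.023), B6NCrl controls only, which equals leaving out unaffected mouse 14 (-0.012), limma with log2(FPKM + 1) with or without a filter (-0.042), limma with log2(FPKM + 0.1) (-0.049), and without affected mouse 3 (-0.011) or 4 (-0.10) or unaffected mouse 21 (-0.020). None of these *Glis3* values was called. The factors called numbered 2 in DESeq2 and in both filtered limma fits, and 1 to 3 when each mouse was left out, with 3 only without affected mouse 4. Target genes called numbered 3 to 7, with 4 to 5 when each mouse was left out and 7 without affected mice 1 and 6. Cofactors called numbered 0 with library totals without *Tg* and in limma without a filter, and 2 without affected mice 1 and 6. The implied length difference of *Pax8* ran from -11.8 to 3.16 bp when each mouse was left out, positive without unaffected mouse 23. Over all genes, 1339 were called in limma without a filter against 2699 in edgeR with TMM factors, and 1774 in edgeR without affected mouse 5. Of the calls, 55.6% were higher in affected mice with TMM factors, 43.2% with upper-quartile factors and 26.1% with totals without *Tg*. The causes of these shifts were not tested. No paired analysis was possible because the groups share no replicate number. With 5 and 7 mice of unknown sex and age, and substrain tied to phenotype but for 1 mouse, differences of substrain, sex or age cannot be told apart from those of dysplasia.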

Other observations

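Other genes of the early thyroid were measured beside the factors. Of 16 genes of the thyroid bud and pharynx, 13 passed the filter, 2 rose and none fell, with a median log2 fold change of 0.15. The 2 genes called are 15.4% of those tested, near the 13.7% called among all genes, so that the count itself says little. *Jag1*, a Notch ligand gene, rose by 0.57 on the log2 scale (SE 0.16, adjusted p = 0.0305, edgeR) and *Ntn1*, which encodes the guidance factor netrin-1, by 0.76 (SE 0.21, adjusted p = 0.0345, edgeR). *Shh* and *Fgf8*, which are not among the genes that passed, had at most 2 and 0 counts in a mouse.

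Of 4 keratins of simple epithelium 3 rose, and *Krt7* was not called (-0.21, SE 0.26, adjusted p = 0.638, edgeR). *Krt18* rose by 1.32 (SE 0.21, adjusted p = 0.00157, edgeR), *Krt8* by 1.32 (SE 0.30, adjusted p = 0.013, edgeR) and *Krt19* by 0.97 (SE 0.28, adjusted p = 0.0367, edgeR), while the other 7 of 10 epithelial genes were not called. Of 8 macrophage genes 4 rose and none fell, led by *Cd68* (0.98, SE 0.21, adjusted p = 0.0101, edgeR) and *Cd163* (0.91, SE 0.13, adjusted p = 0.00095, edgeR). Of 8 fibroblast genes 3 rose, namely *Dpt* (0.74), *Dcn* (0.58) and *Pdgfra* (0.38). Of the C cell genes, 9 of 10 were tested, and all 9 had a log2 fold change below 0, with a median of -0.32. Only *Ret* was called (-0.80, SE 0.23, adjusted p = 0.0377, edgeR). *Cyp2f2*, *Bpifa1* and *Scgb3a1* were called higher among the 7 airway genes tested, each with its highest value in affected mouse 3. *Scgb3a1* had 133 CPM there and 13.5 in mouse 6. In affected mice 1, 4 and 5 it had 0.131, 0.155 and 0.647 CPM, inside the unaffected range of 0 to 0.906. Without *Muc5b* the airway genes summed to 29.1 to 2137 CPM in affected and 11.5 to 37.2 CPM in unaffected mice. Of all genes tested, 7.63% were called higher and 6.1% lower in affected mice.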
